A study of Mus musculus with 6 samples.

Results

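Genes that hold the cell cycle in check were followed through the cell classes of the mouse aortic root and ascending aorta, as 10 members fixed by name before the counts were read: the cyclin kinase inhibitors Cdkn1a, Cdkn1b, Cdkn1c, Cdkn2a, Cdkn2b and Cdkn2c, the tumour suppressor Trp53, and the growth arrest and DNA damage genes Gadd45a, Gadd45b and Gadd45g. Each symbol matched 1 gene of the file, so all 10 of 10 were read, and other cyclin kinase inhibitors entered only as a list set beside them. The names were picked for the pathway, with earlier results of these data known, and not for any value found here.

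Single cells came from 6 female mice of 16 weeks on a 129 background, 1 library of 10x 3′ v3 chemistry per mouse, sorted as DyeCycle Violet-positive and propidium iodide-negative after 30 min or 1 h of digestion. By their labels 2 mice were controls (Tgfbr1+/+), 2 were controls that also carried a CRE driven by the Wnt2 promoter, described as specific to the cardiac neural crest, with the EGFP-L10a tracer, and 2 were Loeys-Dietz syndrome (LDS) mice (Tgfbr1M318R/+). Barcodes carry a suffix of 1 to 6 that tells the libraries apart, but nothing analysed here ties a suffix to a mouse, so the genotype of each library is unknown and LDS was not compared with control. Values are therefore given by library, as the lowest, median and highest of libraries (6 unless stated), or pooled over libraries, and without a test.

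Cells within the quality limits (between 1000 and 5000 genes, between 1500 and 25000 unique molecular identifiers or UMIs, which count captured transcripts once, and under 20% mitochondrial UMIs) numbered 24972 of 30716 barcodes and held 180240262 UMIs. Libraries 1 to 6 gave 3225, 2859, 5019, 6395, 5611 and 1863 cells, with median depths of 7530, 9838, 6436, 5572, 5814 and 9615 UMIs. Among these cells 152 shared a barcode sequence with a cell of another library (21, 16, 36, 35, 33 and 11 in libraries 1 to 6), and they were kept. Clustering without the member and list genes gave 10372 cells like vascular smooth muscle cells (VSMCs), 13408 like fibroblasts, 570 endothelial-like, 549 leukocyte-like and 56 glia-like, all names rebuilt here from markers. Re-clustering of the VSMC-like cells gave a VSMC1-like (7908 cells) and a VSMC2-like subset (1805 cells, high in Enpep and Notch3, low in Tes and Ptprz1), with median depths of 7260.5 and 6977 UMIs. Further subsets of 388 cells (led by Cd74 and H2-Aa) and 271 cells (Prrx2, Sfrp2 and Rgs5) belong to neither. A ratio was called when its direction was the same in all 6 libraries.

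Smooth muscle cells of the adult aorta seldom divide, and what keeps them out of the cycle is largely a set of proteins that bind cyclin-dependent kinases. The CIP/KIP proteins bind cyclin-kinase pairs of most phases, whereas the INK4 proteins bind CDK4 and CDK6 alone and so keep the retinoblastoma protein able to hold back E2F genes. p53 switches on Cdkn1a and some GADD45 genes after damage, although stress kinases and early response factors also reach these genes without it, and much of the control of p53 and of p27 acts on protein that a count of transcripts does not see.

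Over all cells the members differed widely in abundance. Gadd45g (120886 UMIs, 671 CPM) and Gadd45b (101658 UMIs, 564 CPM) were the most abundant, followed by Cdkn1a (25106 UMIs, 139 CPM), Cdkn1c (13310 UMIs, 73.8 CPM), Cdkn1b (10281 UMIs, 57.0 CPM) and Trp53 (9744 UMIs, 54.1 CPM). Below them lay Gadd45a (6310 UMIs, 35.0 CPM) and Cdkn2c (4829 UMIs, 26.8 CPM), while Cdkn2b (1555 UMIs, 8.63 CPM) and Cdkn2a (570 UMIs in 299 cells, 3.16 CPM) stayed under the 10 CPM required for a ratio by library and are described by their counts and pooled ratios. Because the chemistry reads 1 tag near the 3′ end of a transcript, CPM compares genes without a correction for length, though priming and mapping can differ between 3′ ends. A transcript of the opposite strand overlaps Cdkn1a, Cdkn1c and Gadd45a, and how reads were shared there was not examined.

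In VSMC2-like over VSMC1-like cells 5 of the 8 members with at least 10 CPM (Cdkn1a, Cdkn2c, Gadd45a, Gadd45b and Gadd45g) were higher in all 6 libraries, against 957 of 7707 genes (12.4%), and 0 of 8 were lower, against 1701 genes (22.1%). The members had a median log2 ratio of 0.73, and all genes at that level a median of −0.06. These subsets also differed in transcripts induced by dissociation: 22 of 26 genes of that list were higher in VSMC2-like cells in every library (median 0.95), their sum was 23273, 19813, 27317, 25967, 34118 and 24652 CPM in VSMC2-like against 13043, 12383, 15339, 14726, 24053 and 16351 CPM in VSMC1-like cells of libraries 1 to 6, and Fos was the most abundant of them in VSMC-like cells (5077 CPM). When VSMC1-like cells were weighted to the same dissociation share, 3 of the 8 members (Cdkn1a, Cdkn2c and Gadd45b) were higher in VSMC2-like cells in all libraries, beside 930 of 7707 genes, and 0 of 8 were lower, beside 1275 genes. How far dissociation set the levels in the living wall was not tested.

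**Figure D1:**
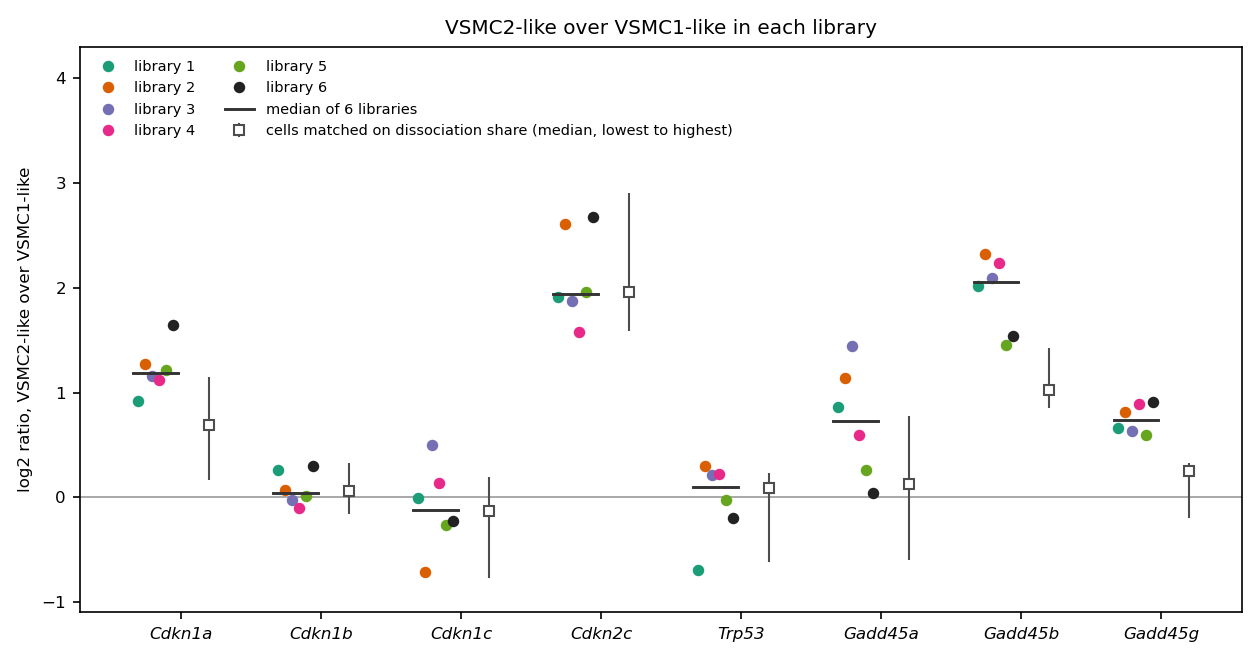
Log2 of CPM in VSMC2-like over that in VSMC1-like cells for the 8 members with at least 10 CPM, 1 coloured point per library and a line at the median, with an open square and whiskers for the median and range after cells were matched on their share of dissociation transcripts. Cdkn2c stays at the same height (1.94 and 1.96), while Gadd45b goes from 2.06 to 1.02.

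Cdkn1a (ENSMUSG00000023067, chr17:29090976-29100727, plus strand) encodes p21, the CIP/KIP protein that p53 induces to stop cells ahead of S phase. Its level in libraries 1 to 6 was 97.8, 109, 147, 128, 172 and 175 CPM in VSMC2-like cells and 51.6, 45.1, 65.9, 58.8, 73.8 and 55.7 CPM in VSMC1-like cells. Every VSMC2-like value lay above every VSMC1-like value, with library 1 lowest of the former and library 5 highest of the latter. The median log2 ratio was 1.19 (0.92 to 1.65), and 0.69 (0.17 to 1.15, still higher in 6 of 6) in cells matched on dissociation. At least 1 UMI was found in 45.1% of VSMC2-like cells and 27.1% of VSMC1-like ones, and in 26.4% and 14.1% once each cell was thinned to 3000 UMIs, which left out 76 and 455 shallower cells. Outside smooth muscle Cdkn1a was at 152 to 221 CPM (median 159) in fibroblast-like, 247 to 351 CPM (278) in leukocyte-like and 264 to 506 CPM (337) in endothelial-like cells. The endothelial and leukocyte ranges overlapped, and both lay above that of fibroblast-like cells, which overlapped the VSMC2-like range and was below it within library 6. Leukocyte-like clusters differed when pooled, at 302 CPM in cluster 9 (led by C1qb, C1qa and Lyz2) and 615 CPM in cluster 15 (S100a9, Clec4e and Il1b). Cluster 13 (Camp, Ngp and S100a8) was at 95.5 CPM, below every fibroblast-like library.

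Cdkn1b (ENSMUSG00000003031, chr6:134920401-134925513, plus strand) encodes p27, the CIP/KIP protein of resting cells, which is set mostly through translation and degradation. Within smooth muscle it was at 60.5 to 84.7 CPM (median 67.3) in VSMC2-like and 59.6 to 75.2 CPM (64.5) in VSMC1-like cells, ranges that overlapped. VSMC2-like cells were the higher in 4 of 6 libraries, with a median log2 ratio of 0.04 (−0.10 to 0.30), and in 6 of 6 without the cells marked as likely doublets (0.15, 0.03 to 0.29). After thinning 18.7% and 18.6% of these cells held a UMI (38.6% and 38.4% before). It was also the only member lower in fibroblast-like than VSMC-like cells in all 6 libraries, at 43.7 to 59.4 CPM (46.1) and a median log2 ratio of −0.45. Among leukocyte-like clusters the pooled value was 155 CPM (123 to 194) in cluster 13, led by neutrophil precursor and T cell genes (Camp, Ngp, S100a8 and Cd3e), and 37.7 CPM (30.7 to 45.7) in the macrophage-like cluster 9. Cluster 15, led by S100a9, Clec4e and Il1b, was at 154 CPM (103 to 221).

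Cdkn1c (ENSMUSG00000037664, chr7:143458339-143461050, minus strand) encodes p57, the CIP/KIP protein of the imprinted cluster on distal chromosome 7, expressed from the maternal copy. Smooth muscle subsets overlapped, at 22.9 to 73.9 CPM (median 43.2) in VSMC2-like and 37.6 to 55.8 CPM (49.6) in VSMC1-like cells, and the log2 ratio (median −0.12, −0.71 to 0.50) was positive in 2 of 6 libraries. Fibroblast-like cells held 61.9 to 117 CPM (85.9), endothelial-like cells 76.7 to 198 CPM (142) and leukocyte-like cells only 7.16 to 27.7 CPM (23.4), the last below every VSMC-like library (34.3 to 55.8 CPM). The endothelial level differed by cluster: cluster 11 (led by Cd36, Rbp7 and Gpihbp1, 337 cells) had a median of 196 CPM over 5 libraries with at least 20 such cells, and cluster 12 (Mmrn1, Nts and Lyve1, 233 cells) 38.8 CPM over 3 libraries. Cdkn1a split the same way, with medians of 500 and 216 CPM.

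Cdkn2a (ENSMUSG00000044303, chr4:89274471-89294653, minus strand) encodes both p16, an INK4 protein that rises in senescent cells, and p19ARF, which shields p53 from Mdm2, and 3′ tags from their shared last exons do not tell the transcripts apart. VSMC1-like cells held 0, 2, 1, 1, 3 and 0 UMIs in libraries 1 to 6 and VSMC2-like cells 9, 10, 7, 9, 26 and 22, out of 62748234 and 14166634 UMIs of all genes. Pooled over libraries this was 83 UMIs against 7, a ratio of 52.5 with a 95% counting interval of 24.4 to 135. Of the 83 UMIs, 37 were in 8 cells that held 3 or more each. A UMI was seen in few cells, which at so low a level does not limit how many express the gene: 2.71% of VSMC2-like cells and 0.0759% of VSMC1-like ones held a UMI (1.62% and 0.0268% after thinning), and 0% of the 56 glia-like cells did (upper limit 6.38%). VSMC2-like cells with the transcript numbered 49, of which 4.08% were marked as likely doublets, against 12.5% of all VSMC2-like cells. Without subcluster 7, which holds many fibroblast transcripts, the ratio was 35.0 (15.6 to 92.3), and without marked doublets 58.9 (27.3 to 151).

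More Cdkn2a lay outside smooth muscle, at 31.9 to 56.0 CPM in leukocyte-like cells of libraries 1 to 5 and 7.16 CPM in library 6. Of 103 leukocyte UMIs 95 were in cluster 9, led by the macrophage genes C1qb, C1qa and Lyz2. Fibroblast-like cells held 3.38, 2.65, 5.44, 3.36, 2.63 and 7.95 CPM, which overlapped the VSMC2-like range of 2.74 to 12.8 CPM. Within them 232 of 367 UMIs were in cluster 4 (led by Coch, Spp1 and 1500015O10Rik, 1572 cells), in 101 cells of which the richest held 28. Cluster 4 had 20.3, 9.45, 29.2, 11.5, 6.61 and 34.7 CPM in libraries 1 to 6, all above the 1.15 to 2.96 CPM of the other fibroblast-like cells, a comparison in which 13.8% of 8261 genes were higher and 17.4% lower in every library.

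Cdkn2b (ENSMUSG00000073802, chr4:89306299-89311039, minus strand) is the INK4 neighbour of Cdkn2a and encodes p15, an inhibitor that TGF-β induces in many epithelial cells. In VSMC1-like cells it was at 6.29, 11.5, 7.34, 5.02, 6.52 and 17.1 CPM and in VSMC2-like cells at 6.27, 9.09, 6.52, 5.78, 8.22 and 14.5 CPM, highest in libraries 6 and 2 in both subsets. The 115 UMIs in VSMC2-like and 512 in VSMC1-like cells made a pooled ratio of 0.995 (0.805 to 1.22), so the neighbours on chromosome 4 did not share the difference between subsets. They did share fibroblast-like cluster 4, where Cdkn2b was at a median of 24.8 CPM against 6.59 CPM in other fibroblast-like cells, higher in 6 of 6 libraries. Inside that cluster, cells with Cdkn2a held 100 CPM of Cdkn2b (80.9 to 123) and cells without it 23.8 CPM, both pooled over libraries. Library 6, with the highest Cdkn2b in the cluster (56.6 CPM), gave 24 of the 101 cells with Cdkn2a and 115 of all 1572 cells.

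Cdkn2c (ENSMUSG00000028551, chr4:109660876-109667189, minus strand) encodes p18, the INK4 protein that E2F factors induce late in the cycle and that lingers in differentiated muscle. It separated the smooth muscle subsets, at 39.5, 54.5, 61.4, 64.2, 77.5 and 59.7 CPM in VSMC2-like and 10.4, 8.87, 16.7, 21.4, 19.8 and 9.26 CPM in VSMC1-like cells. The sets of values did not overlap, and library 1 was lowest among VSMC2-like cells and library 2 among VSMC1-like cells. The log2 ratio had a median of 1.94 (1.58 to 2.67), and 1.96 (1.59 to 2.91, 6 of 6 libraries) in cells matched on dissociation. After thinning 17.4% of VSMC2-like cells and 4.66% of VSMC1-like ones held a UMI (34.3% and 10.8% before). Fibroblast-like cells held 18.8 to 38.0 CPM (28.0), so their highest library did not reach the lowest VSMC2-like one, whereas the leukocyte-like (14.8 to 48.5) and endothelial-like ranges (0 to 53.8, the 0 from 10 cells of library 6) did.

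Trp53 (ENSMUSG00000059552, chr11:69580359-69591873, plus strand) encodes p53, whose activity is set mainly by protein turnover. Its transcript was at 30.7 to 57.1 CPM (median 46.0) in VSMC2-like and 41.5 to 49.8 CPM (45.3) in VSMC1-like cells, overlapping ranges with a median log2 ratio of 0.10 (−0.70 to 0.30, positive in 3 of 6). After thinning 12.6% and 12.5% of these cells held a UMI (27.8% and 28.3% before). Fibroblast-like cells were narrowly placed at 57.4 to 62.3 CPM (59.0), above every VSMC-like library (43.4 to 47.9 CPM). Leukocyte-like cells held 76.0 to 97.7 CPM (93.5), above every fibroblast-like library, and endothelial-like cells 54.4 to 115 CPM (98.7), a range that overlapped both, with library 4 lowest. Together with Cdkn1a it was higher than in VSMC-like cells of the same library in each of these classes and in all 6 libraries.

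Gadd45a (ENSMUSG00000036390, chr6:67035096-67037457, minus strand) encodes a small protein that binds PCNA, Cdk1 and the kinase Map3k4 and is a p53 target after damage. In VSMC2-like cells it was at 25.7, 23.4, 37.5, 28.6, 48.4 and 21.5 CPM and in VSMC1-like cells at 14.1, 10.6, 13.7, 18.96, 40.5 and 20.9 CPM. The subsets overlapped because library 5 was high in both, and in library 6 they were nearly level. Its log2 ratio of 0.73 (0.04 to 1.45) fell to 0.12 (−0.60 to 0.78, positive in 4 of 6) in cells matched on dissociation. After thinning 8.91% of VSMC2-like cells and 6.09% of VSMC1-like ones held a UMI (18.5% and 12.5% before), but in library 6 the order was reversed (4.938% and 5.601%), and Gadd45a was also higher in only 5 of 6 libraries at the next finer resolution and with log-normalized counts. Fibroblast-like cells held 33.2 to 56.5 CPM (41.9), and leukocyte-like cells 29.6 to 103 CPM (66.1).

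Gadd45b (ENSMUSG00000015312, chr10:80930073-80932204, plus strand) encodes the GADD45 protein that NF-κB and TGF-β induce and that acts on the kinases Map2k7 and Map3k4 of MAP kinase cascades. Libraries 1 to 6 held 283, 339, 671, 593, 699 and 470 CPM in VSMC2-like and 69.5, 67.5, 157, 126, 255 and 162 CPM in VSMC1-like cells. No VSMC1-like library reached the lowest VSMC2-like one, and libraries 1 and 2 were lowest in both subsets. Its log2 ratio was 2.06 (1.45 to 2.33), near that of Cdkn2c, and 1.02 (0.86 to 1.42, 6 of 6) in cells matched on dissociation, where that of Cdkn2c was the larger. After thinning 54.5% of VSMC2-like cells and 24.2% of VSMC1-like ones held a UMI (68.3% and 39.2% before). Fibroblast-like cells held 614 to 986 CPM (815), endothelial-like cells 217 to 908 CPM (631) and leukocyte-like cells 1078 to 1893 CPM (1366), the last above every library of the former classes. Among leukocyte-like clusters, pooled levels were 1514 CPM in cluster 9 and 2467 CPM in cluster 15, but 523 CPM in cluster 13, below every fibroblast-like library.

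Gadd45g (ENSMUSG00000021453, chr13:51846678-51848468, plus strand) encodes the GADD45 protein first met as a cytokine response gene, and was the most abundant member in smooth muscle. Its values were 405, 343, 1028, 1102, 1080 and 554 CPM in VSMC2-like and 255, 195, 665, 596, 714 and 296 CPM in VSMC1-like cells. Libraries 3, 4 and 5 were high in both subsets and libraries 1, 2 and 6 low, so the subsets overlapped across libraries although VSMC2-like was the higher in each. The log2 ratio of 0.74 (0.60 to 0.91) was 0.25 (−0.20 to 0.33, positive in 4 of 6) in cells matched on dissociation. After thinning 63.8% of VSMC2-like cells and 51.7% of VSMC1-like ones held a UMI (76.6% and 69.7% before). Its ranges overlapped between the other classes, at 446 to 1040 CPM (median 725) in fibroblast-like, 562 to 886 CPM (655) in endothelial-like and 267 to 756 CPM (537) in leukocyte-like cells.

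**Figure D2:**
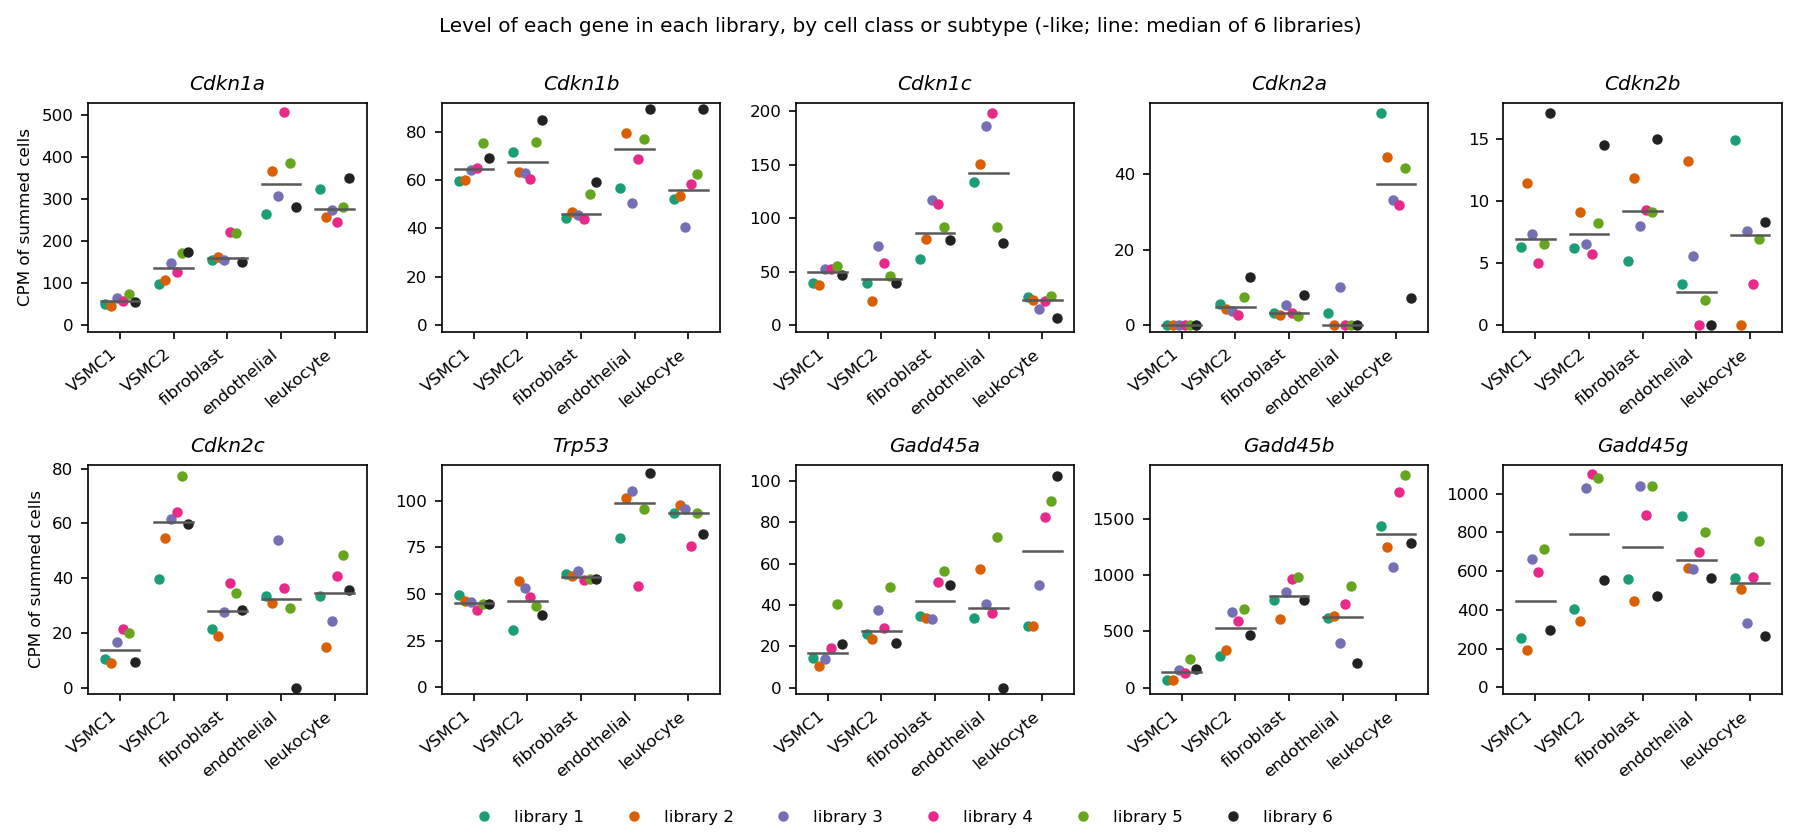
Level of each member (CPM) in VSMC1-like, VSMC2-like, fibroblast-like, endothelial-like and leukocyte-like cells, with 1 coloured point per library and a line at the median of 6 libraries. VSMC2-like points clear VSMC1-like points for Cdkn1a (medians 138 and 57.3), Cdkn2c (60.6 and 13.5) and Gadd45b (531 and 141).

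Over VSMC-like cells 7 of 8 members were higher in fibroblast-like cells in all 6 libraries, all but Cdkn1b, where 36.9% of 8261 genes were, and 1 was lower, where 34.6% were, with a median log2 of 0.70 for the members and 0.02 for all genes. Gadd45b (1.89), Cdkn1a (1.34), Gadd45a (1.16) and Cdkn1c (0.94) led, before Gadd45g (0.45), Trp53 (0.39) and Cdkn2c (0.26). In endothelial-like cells 3 of 8 were higher in every library (Cdkn1a at 2.13, Cdkn1c at 1.78 and Trp53 at 1.10) against 22.2% of genes, and 0 were lower against 20.5%, with medians of 1.01 and 0.06. Library 6 had only 10 endothelial-like cells, and without it 6 of 8 members were higher, beside 2422 of 8261 genes. In leukocyte-like cells 4 of 8 were higher (Gadd45b at 2.68, Cdkn1a at 1.95, Gadd45a at 1.28 and Trp53 at 1.00) against 19.1% of genes, and 1 was lower (Cdkn1c at −1.08) against 38.7%, with medians of 0.77 and −0.32. Dissociation transcripts moved with these classes too, their median sum being 17578 CPM in VSMC-like, 25630 in fibroblast-like, 32454 in endothelial-like and 32838 in leukocyte-like cells, and their share in the class ratios was not tested. Cells marked as likely doublets were 4.33% of VSMC-like, 4.86% of fibroblast-like, 14.7% of endothelial-like and 20.8% of leukocyte-like cells.

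VSMC2-like cells held more fibroblast transcripts than VSMC1-like cells, with 7 of 9 fibroblast markers higher in all libraries, sums with medians of 3771 and 2088 CPM, and Col3a1 the most abundant in VSMC-like cells (1021 CPM). Endothelial markers summed to 22.9 and 9.04 CPM, leukocyte markers to 7.43 and 7.37 CPM, pericyte markers to 473 and 406 CPM (mostly Rgs5, 415 CPM in VSMC-like cells), cardiomyocyte markers to 113 and 114 CPM (mostly Tnnt2), mesothelial markers to 2.05 and 0.488 CPM and glia markers to 4.91 and 22.0 CPM, each pair being the median of VSMC1-like and then of VSMC2-like cells. Glia markers were thus the higher in the VSMC2-like subset, as they were in 5 of 6 libraries, and endothelial and mesothelial markers were lower there in 6 of 6. VSMC markers, with Acta2 the most abundant (27652 CPM), had median sums of 66829 CPM for VSMC1-like cells and 64057 CPM for VSMC2-like ones, the latter being the higher in 2 of 6 libraries. Fibroblast-like cells had a lower median of Cdkn2c than VSMC2-like cells and a higher one of Gadd45b and Cdkn1a, and what admixed fibroblast RNA added to each ratio was not tested beyond leaving cells out. Leaving out subcluster 7, 18.5% of VSMC2-like cells, gave log2 ratios of 2.10 for Cdkn2c, 1.12 for Cdkn1a, 1.98 for Gadd45b, 0.81 for Gadd45g and 0.80 for Gadd45a, and the same 5 members higher in 6 of 6 libraries, beside 947 of 7707 genes. Among the VSMC-like clusters, cluster 7 (952 cells) was led by the pericyte marker Rgs5 and cluster 10 (386 cells) had Tnnt2 among its leading genes. Neither set of leading genes held a VSMC marker, as was also so for VSMC-like clusters 1 and 5. Acta2 was at 24416 CPM in cluster 7 and 22639 CPM in cluster 10, against 22409 CPM in cluster 1. Leaving out clusters 7 and 10 also kept these 5 members, beside 938 genes.

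Among 10 finer subclusters of VSMC-like cells, Cdkn2c stood out in subcluster 2 (led by Pgam2, Thbs1 and Olfr558, 1471 cells, 99.8% VSMC2-like) at 68.2 CPM pooled (95% counting interval 63.4 to 73.3). Subcluster 7 (Cygb, Clec3b and Dcn, 343 cells, 97.4% VSMC2-like, 50.7% marked as likely doublets) followed at 40.5 CPM, and the other 8 had 10.7 to 23.2 CPM. Cdkn1a did not follow VSMC2-like cells alone: it was at 139 CPM in subcluster 2, 138 in subcluster 7 and 124 in subcluster 3 (Mt1, Socs3 and Atf3, 1103 cells, 0% VSMC2-like), against 36.8 to 81.9 CPM elsewhere. Pooled over libraries, Gadd45a (64.0 CPM) and Gadd45g (1087 CPM) were highest in subcluster 3, but 50.0% of its cells came from library 5, and over libraries its Gadd45a ran from 14.0 to 92.8 CPM (median 43.8) and its Gadd45g from 429 to 1604 CPM (median 936). In this subcluster dissociation transcripts reached 36433 CPM, above 28124 CPM in subcluster 2 and 11450 CPM in subcluster 0 (Tes, Ccdc42 and Krt18). Gadd45b was at 545, 497 and 423 CPM in subclusters 2, 7 and 3 and at 65.3 CPM in subcluster 0. Cdkn2a had 43 UMIs in subcluster 2 (3.91 CPM) and 40 in subcluster 7 (12.3 CPM), with 0 to 0.566 CPM in the rest. Other subclusters were led by Malat1, Gm26669 and Tnxb (subcluster 1), Des, Psd and Tnnt2 (4), Cd74, H2-Aa and H2-Eb1 (6), Igfbp2, Akap5 and Trnp1 (8) and Prrx2, Sfrp2 and Rgs5 (9).

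**Figure D3:**
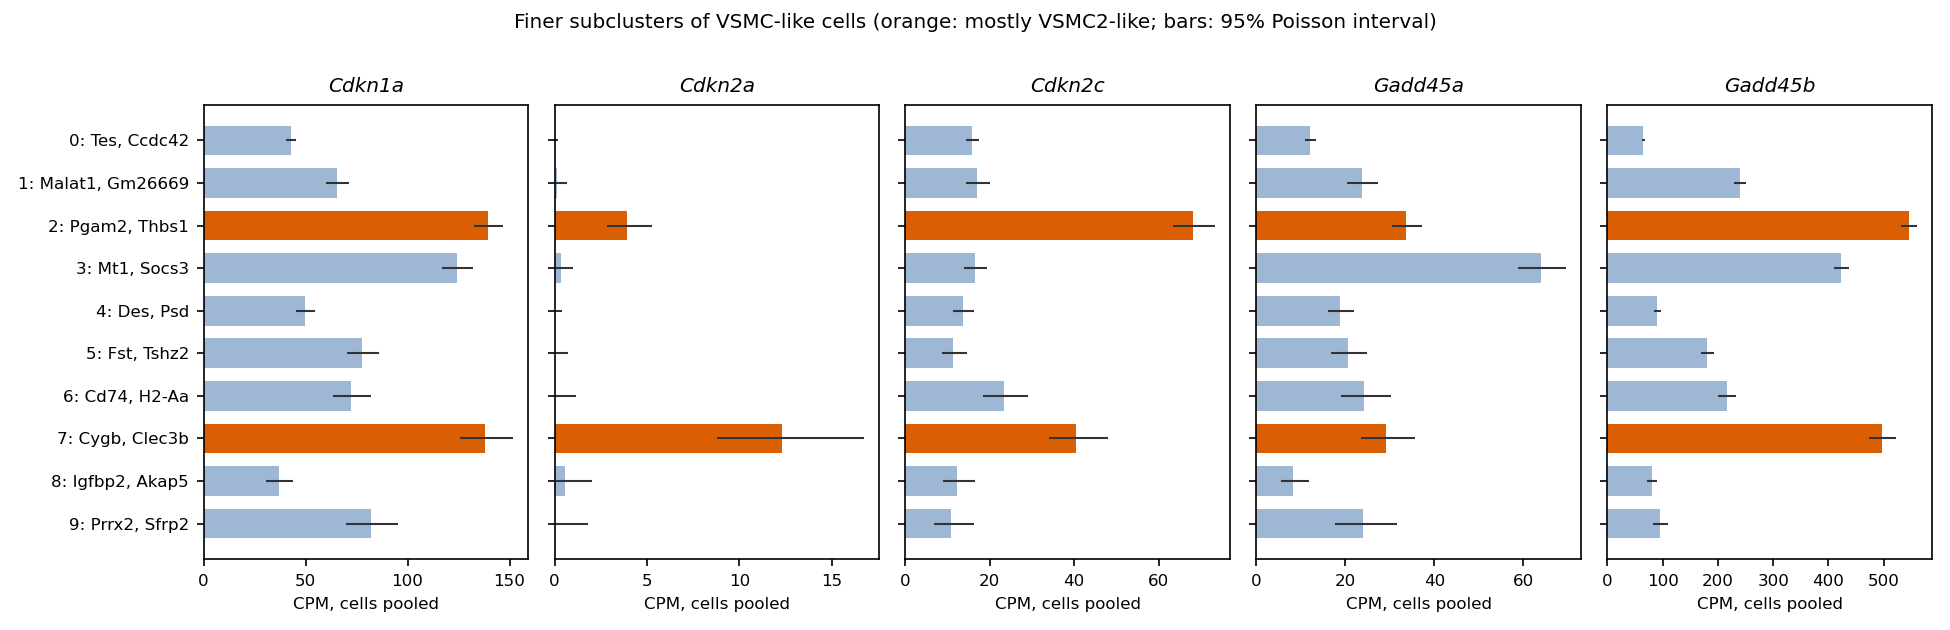
Pooled level (CPM, bars) with 95% Poisson counting intervals (lines) of Cdkn1a, Cdkn2a, Cdkn2c, Gadd45a and Gadd45b in 10 finer subclusters of VSMC-like cells, with the subclusters that are mostly VSMC2-like in orange. Cdkn2c peaks in subcluster 2 (68.2 CPM), whereas Gadd45a peaks in subcluster 3 (64.0 CPM).

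Within each subset Cdkn1a, Gadd45b and Gadd45g tended to be found in the same cells. In cells thinned to 3000 UMIs, a median of 64.4% of Gadd45b-positive VSMC1-like cells also held Gadd45g, against 41.5% of Gadd45b-negative ones, and in VSMC2-like cells the shares were 72.2% and 44.6%, higher in 6 of 6 libraries in both. Gadd45b was found in 34.6% of Cdkn1a-positive and 21.7% of Cdkn1a-negative VSMC1-like cells and in 64.2% and 49.6% of VSMC2-like cells, also 6 of 6. It was found in 40.8% of Gadd45a-positive and 22.5% of Gadd45a-negative VSMC1-like cells (6 of 6). In VSMC2-like cells these shares were 60.9% and 55.0% (5 of 6). Cdkn2c showed no such pairing with Cdkn1a: 18.4% of Cdkn1a-positive and 17.6% of Cdkn1a-negative VSMC2-like cells held it, higher in 3 of 6 libraries. These shares were not examined in cells matched on dissociation or without marked doublets. The 49 VSMC2-like cells with Cdkn2a held 40 UMIs of Cdkn2c, or 98.7 CPM (70.5 to 134), against 61.04 CPM (57.0 to 65.3) in the others, and 10 UMIs of Cdkn2b, or 24.7 CPM (11.8 to 45.4), against 7.63 CPM (6.24 to 9.24). Their Cdkn1a was the lower at 96.2 CPM (68.4 to 131, 39 UMIs) against 141 CPM (135 to 148), whereas cells with Cdkn2a in fibroblast-like cluster 4 had more of it (223 CPM, 194 to 255) than those without (178 CPM, 170 to 185). These levels by Cdkn2a are pooled over libraries, their intervals cover counting error alone, and they were not split by subcluster. Subcluster 7, 18.5% of VSMC2-like cells, held 40 of the 83 Cdkn2a UMIs of that subset. Library 6 gave 12 of the 49 cells but 166 of all 1805 VSMC2-like cells, and its VSMC2-like Cdkn2b was the highest (14.5 CPM).

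Lists of genes around the members were read at the same limit of 10 CPM, beside the 12.4% of all genes called higher and 22.1% called lower. Of 5 genes coding other proteins tied to CDK inhibition (median 0.09) 2 were called higher in VSMC2-like cells and 0 lower, with Cdkn2aip (0.41) and Cdk2ap2 (0.18) at the top and Cdk2ap1 (−0.08) and Cdkn2aipnl (−0.29) at the bottom. Of 8 cyclins and kinases (median 0.03) 1 was higher and 1 lower, the first being Ccnd1 (2.49, median 35.5 against 6.02 CPM), a cyclin that competes with the INK4 proteins for CDK4 and CDK6, before Cdk7 (0.14), Ccnh (−0.09) and Ccnd3 (−0.36). The 9 retinoblastoma, E2F and DREAM genes (median −0.02) gave 0 higher and 2 lower, from Rb1 (0.26) and E2f4 (0.19) to Lin37 (−0.24) and Rbl2 (−0.48). Of 15 proliferation genes 0 reached the limit, and their sums were 14.2 CPM in VSMC2-like and 7.86 CPM in VSMC1-like cells.

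Around p53, 8 regulators (median −0.19) gave 0 higher and 1 lower, from Sirt1 (0.46) and Mdm2 (0.23) to Rchy1 (−0.36) and Hipk2 (−0.57). Its 18 targets (median 0.00) gave 5 higher and 2 lower, with Plk2 (1.79) and Phlda3 (0.59) set against Dcxr (−0.43) and Sesn1 (−0.78), and their summed level, much of it Btg2 (847 CPM in VSMC-like cells), was higher in VSMC2-like cells in each library (medians 1902 and 1336 CPM). Partners of the GADD45 proteins (11 genes, median −0.10) gave 1 higher and 2 lower, from Mapk9 (0.20) and Map2k7 (0.16) to Map3k4 (−0.30) and Mapk8 (−0.47). Other antiproliferative genes gave 7 higher and 1 lower of 11 (median 0.50), with Ddit4 (1.95) and Ppp1r15a (1.56) first and Gas1 (−0.59) and Nupr1 (−1.26) last. FOXO and quiescence genes gave 5 higher and 3 lower of 10 (median 0.12; Tsc22d3 2.15, Cited2 1.21, Rbl2 −0.48, Bnip3 −0.76), and MYC and ID genes 5 higher and 0 lower of 10 (median 0.56; Id3 1.13, Myc 1.10, Mxi1 −0.03, Mxd4 −0.05). Imprinted genes, the company of Cdkn1c, gave 3 higher and 2 lower of 11 (median 0.11), from Ndn (0.92) and Meg3 (0.67) to Peg3 (−0.22) and Cd81 (−0.28), and in leukocyte-like cells 9 of 12 were lower than in VSMC-like cells, beside 38.7% of all genes, as Cdkn1c was. The dissociation list ran from Egr2 (3.44) and Ier3 (1.72) to Hsp90aa1 (0.02) and Klf6 (−0.11).

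Across 30 sums (5 cell groups in 6 libraries, so that differences between classes weigh most) the genes most like each member were taken by Pearson correlation of log2 CPM. Gadd45b went with Junb (0.934), Ier3 (0.928) and Sertad1 (0.928) and Gadd45g with Egr1 (0.766), Pou3f1 (0.723) and Fos (0.717), which are mostly early response genes. Cdkn1a went with Irf1 (0.948), Plk2 (0.943) and H2-Q4 (0.924) and Trp53 with Clic1 (0.926), H2-D1 (0.920) and Fxyd5 (0.911), and the pair Cdkn1a and Trp53 had 0.732. For Cdkn1b the closest were Upf2 (0.784), Rasgrp2 (0.766) and Pfkl (0.764), for Cdkn1c Hey1 (0.890), Sptbn1 (0.888) and Myl12a (0.887), for Cdkn2c Arc (0.810), 4921524J17Rik (0.801) and Msh3 (0.798), and for Gadd45a Hirip3 (0.905), Ift52 (0.897) and Gmeb1 (0.889). The last 2 sets hang largely on the 10 endothelial-like cells of library 6, which held 0 UMIs of Cdkn2c and Gadd45a: without that sum, a choice made after the data were seen, the correlations were 0.6998, 0.404 and 0.492 for Cdkn2c and 0.742, 0.718 and 0.685 for Gadd45a. For the other 6 members these genes stayed among the 5 most like them.

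Cells with transcripts of at least 3 proliferation genes were nearly absent from smooth muscle, 1 of 10372 VSMC-like cells, and numbered 8 fibroblast-like, 10 endothelial-like and 51 leukocyte-like cells, 27 of the last in library 6. In these leukocyte-like cells, 35.3% of them marked as likely doublets, Cdkn2c was at 130 CPM (99.1 to 168) against 18.5 CPM (13.9 to 24.1) in the other leukocyte-like cells. Gadd45b (642 against 1540 CPM), Gadd45g (179 against 491 CPM) and Cdkn1a (190 against 304 CPM) were lower in them. Of these cells 24 were in cluster 9 and 27 in cluster 13, so the makeup of the class enters these pooled values. So does that of the libraries, as library 6 gave 27 of the cells and had the lowest leukocyte-like Gadd45g (267 CPM). Within the clusters Cdkn2c was still higher (122 against 17.5 CPM and 143 against 33.5 CPM) and Gadd45b lower (895 against 1584 CPM and 240 against 673 CPM). Cdkn1a was also the lower in both (266 against 306 CPM and 68.7 against 110 CPM), with counting intervals that overlapped. These values pool cells over libraries, and the spread between cells or libraries was not examined. In VSMC2-like cells Cdkn2c was thus present with hardly any proliferation transcripts, whereas in leukocyte-like cells it was highest where they were found. Cdkn2c was also higher in the 10 endothelial-like (219 against 33.6 CPM) and 8 fibroblast-like cells (104 against 28.8 CPM) with proliferation transcripts. Of these endothelial-like cells 40.0% were marked as likely doublets. The 8 fibroblast-like cells had a median depth of 13231 UMIs, against 6130 in their class.

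Promoters were read for Cdkn1a, the inhibitor that p53 induces, and for the most abundant GADD45 members, as 250 bases before and 50 after the start of a RefSeq transcript in GRCm38.p6, to lay out the motifs on either strand. In the upstream of 2 Cdkn1a promoters (chr17:29090729-29091028, plus strand) the capitals are a match to the p53 half-site at 2 places, a motif found in 8.36% of 32851 mouse promoters. Of the promoters searched for other members, those of Gadd45a and Trp53 each held a match as well. The other Cdkn1a promoter (chr17:29093519-29093818) held no match to any motif searched and is not shown.

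Cdkn1a: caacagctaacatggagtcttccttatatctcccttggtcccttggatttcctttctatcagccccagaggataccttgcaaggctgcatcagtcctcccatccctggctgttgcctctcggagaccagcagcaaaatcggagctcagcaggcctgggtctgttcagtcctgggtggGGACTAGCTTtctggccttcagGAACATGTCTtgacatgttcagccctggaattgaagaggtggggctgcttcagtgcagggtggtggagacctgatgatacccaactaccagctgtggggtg

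The Gadd45b (chr10:80929841-80930140, plus strand) and Gadd45g (chr13:51846425-51846724, plus strand) promoters share a layout. Each holds CACGTG, an E-box found in 7.15% of promoters. Both also hold the CCAAT box (37.4% of promoters) and a TATA box, spelled TATAAA (13.6%). All 3 motifs, on either strand and at any place, occurred together in 81 promoters (0.247%), among them those of Gadd45b, Gadd45g and Trp53. The set was made of motifs already seen in both Gadd45b and Gadd45g, so this percentage does not test how rare their likeness is. Trp53 does not share the layout, as its TATAAA is on the opposite strand at −248 from the start. In Gadd45b and Gadd45g it is on the strand of the gene, at −46 and −27. TGACTCA, bound by AP-1, was in 5.20% of promoters and in none of those read for 9 members, while the promoter of Cdkn1c was not among those read. A match describes the sequence and was not tied to a level.

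Gadd45b: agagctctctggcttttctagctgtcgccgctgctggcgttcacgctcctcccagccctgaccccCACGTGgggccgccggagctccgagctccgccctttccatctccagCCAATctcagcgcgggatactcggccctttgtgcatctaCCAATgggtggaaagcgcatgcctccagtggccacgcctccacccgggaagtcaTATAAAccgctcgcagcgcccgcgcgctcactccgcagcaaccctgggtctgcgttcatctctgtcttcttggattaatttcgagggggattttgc

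Gadd45g: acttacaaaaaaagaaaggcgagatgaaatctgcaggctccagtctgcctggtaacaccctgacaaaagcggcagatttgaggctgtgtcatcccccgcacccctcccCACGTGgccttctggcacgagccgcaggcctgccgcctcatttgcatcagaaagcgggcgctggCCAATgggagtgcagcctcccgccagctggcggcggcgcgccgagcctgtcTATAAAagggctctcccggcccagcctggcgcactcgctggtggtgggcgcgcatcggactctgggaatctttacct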

How the data were processed

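The authors deposited a matrix with the UMI count of 31055 features in 30716 barcodes, aligned to mm10 with Cell Ranger 6 according to the submitters (the matrix header names 4.0.0), and 31053 of the features are mouse genes. The other 2, GFP and Sm3_intact, were not used here, also not to tell which libraries carry the tracer. Members were matched by symbol, and coordinates follow mm10. Members, lists and design were chosen with earlier results of these data known, but before these counts were read. Cells passing the quality limits were normalized by library with SCTransform v2 (3000 variable genes) and integrated with RPCAIntegration over 30 principal components with Seurat 5.3.0 and sctransform 0.4.2 under R 4.3.3, SeuratObject being 5.2.0, at resolution 0.25 for classes, and then 0.05 and 0.30 for subsets and finer subclusters of VSMC-like cells. Member and list genes were left out of the variable genes for classes (95 genes), and for subclusters marker genes were left out as well (124 genes in all). Classes were named by markers, and 17 cardiomyocyte-like cells were left out of VSMC-like cells.

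UMIs were summed by group and library and divided by all UMIs (CPM). Before log2 ratios were taken, 0.5 UMI in proportion to the totals was added to both sums, for genes of at least 10 CPM in VSMC-like cells (subsets) or in all cells (classes). A median ratio is taken over the ratios of 6 libraries and need not equal the ratio of median levels. No depth correction beyond CPM was applied, and detection shares are given before and after thinning each cell to 3000 UMIs. Intervals are exact 95% Poisson or binomial intervals and cover counting error alone. The 5% of cells with the highest Scrublet score in each library were marked as likely doublets and kept (scanpy 1.11.5, Python 3.11.15). From each pathway list, genes are named at both ends of the ratios, 2 at the top and 2 at the bottom. The full set of genes that lead subcluster 5 is not reported. Values are described without a test, because libraries whose genotypes differ and were not told apart do not repeat 1 condition.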

Additional observations from a re-analysis of the deposited data

Results flagged for a closer look

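A library was looked at more closely when its value lay apart from the other 5 by most of the range of all 6, a gap expected by chance in about 1 of 20 sets, and 5 of 92 sets showed it. Cdkn2a in endothelial-like cells was at 10.1 CPM in library 3, from 9 UMIs in 132 cells, with the next library at 3.34 CPM. Gadd45a was at 42.0 CPM in VSMC-like cells of library 5 (next 21.3 CPM) and at 40.5 CPM in its VSMC1-like cells (next 20.9 CPM), from 899 and 703 UMIs, and library 5 also had the highest sum of dissociation transcripts in VSMC1-like cells (24053 CPM). The cause of this height was not tested. The log2 ratio of endothelial-like over VSMC-like cells in library 6 was −7.44 for Cdkn2c (next 0.01) and −7.57 for Gadd45a (next 0.77), both because 10 endothelial-like cells held 0 UMIs of either gene.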

How the results depend on the processing

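Of 604 alternative values 400 were member ratios, of which 392 lay within 1 standard deviation between libraries of the reported ratio and 393 kept its sign. The others were counts of genes or members, judged by a fixed fold limit and not by a spread. By these rules 588 of 604 stayed and 16 moved. A reversal was looked for only in ratios called in all 6 libraries, and 0 were found. With leave-one-out values aside, which share most libraries with the reported ones, 302 of 316 stayed. For ratios of VSMC2-like over VSMC1-like this was 96 of 104. In cells matched on dissociation share the median log2 ratio between VSMC2-like and VSMC1-like cells was 0.69 for Cdkn1a (1.19 reported), 0.12 for Gadd45a (0.73), 1.02 for Gadd45b (2.06) and 0.25 for Gadd45g (0.74), and members higher in every library were 3 in place of 5. Taken on the share of cells with a UMI after thinning, the ratio was 0.91 for Cdkn1a, 1.29 for Gadd45b and 0.34 for Gadd45g (shares replace CPM, cells are thinned and shallow cells are left out together, and which of these moved it was not tested). With log-normalized counts and no integration Gadd45b had 1.69, for a cause that was not tested. The filter sets how many genes enter: without it 1661 of 19049 genes were higher in VSMC2-like cells in every library (957 of 7707 reported) and 6 of 10 members, and with 50 CPM 434 of 2853 genes were higher, 841 lower (1701 reported) and 3 of 4 members higher. In endothelial-like cells 6 members were higher (3 reported) and 2422 genes (1834 reported) without library 6 and also with only libraries of at least 20 such cells, and in leukocyte-like cells 2 members were lower (1 reported) and 3392 genes (3197 reported) without library 6. Leaving out 1 library at a time gave 1032 to 1132 genes higher, 1845 to 1940 lower and 5 members higher each time. Ratios of Cdkn2c, Cdkn1b, Cdkn1c and Trp53 stayed within their spread between libraries, but Cdkn1b was higher in 6 of 6 libraries without marked doublets (0.15, with 6 members and 944 genes higher). The small ratio of Trp53 (0.10) fell below 0 without subcluster 7 (−0.04), after thinning (−0.14) and, barely, with all variable genes kept. The Trp53 median was also below 0 when any library with a positive ratio was left out. Gadd45a was higher in only 5 of 6 libraries with log-normalized counts and at the next finer resolution, which left 4 members in each beside 719 and 967 genes, and also by share after thinning, where Cdkn1b fell just below 0 (−0.01). Settings without subcluster 7, without clusters 7 and 10, with 17 cardiomyocyte-like cells put with VSMC2-like cells, and with endothelial-like libraries of at least 20 cells were chosen after the data were seen, as was counting members under each setting. No paired analysis was possible because the replicate numbers of the labels are not tied to barcode suffixes, so LDS could not be paired with control, while ratios between cell groups were each taken within a library and described without a test.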

Other observations

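Gadd45g divided the libraries in the same way in VSMC-like and fibroblast-like cells, but not in endothelial-like or leukocyte-like cells, where library 3 (612 and 333 CPM) lay below library 1 (886 and 564 CPM): in VSMC-like cells libraries 3, 4 and 5 held 745, 719 and 780 CPM and libraries 1, 2 and 6 held 271, 224 and 354 CPM, and in fibroblast-like cells the values were 1040, 890 and 1040 CPM against 559, 446 and 470 CPM. Libraries 3, 4 and 5 also had more cells (5019, 6395 and 5611) and lower median depths (6436, 5572 and 5814 UMIs) than libraries 1, 2 and 6 (3225, 2859 and 1863 cells, 7530, 9838 and 9615 UMIs), and what set the split was not tested. Cdkn2b ran the other way in part, highest in libraries 6 and 2 in VSMC-like (15.9 and 10.7 CPM) and fibroblast-like cells (14.96 and 11.8 CPM). Leukocyte-like cluster 15 (led by S100a9, Clec4e and Il1b, 39 cells, 35 of them in library 6) held 615 CPM of Cdkn1a and 2467 CPM of Gadd45b pooled. In fibroblast-like cluster 4, Cdkn1c was lower than in other fibroblast-like cells in 6 of 6 libraries (medians 44.2 and 94.9 CPM), while Cdkn2c (51.6 and 24.2 CPM), Gadd45a (74.4 and 34.8 CPM) and Gadd45b (1115 and 781 CPM) were higher in 6 of 6, so that 3 of 8 members with at least 10 CPM were higher and 1 lower, beside 13.8% and 17.4% of 8261 genes. Cdkn2d, an INK4 gene outside the members, was at 119 CPM in leukocyte-like cells with proliferation transcripts and 24.5 CPM in the others.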
